A study of Mus musculus with 36 samples.

Results

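Ccr2/Thbs1 macrophages of the injured mouse left ventricle were taken as single cells that passed a macrophage gate and were led by a set of 4 genes that includes Ccr2, Cxcl3 and Thbs1. The summed UMIs (unique molecular identifiers, the molecule counts of the assay) of these 4 genes had to exceed those of 6 resident macrophage genes (Lyve1, Folr2, Cd163, Vsig4, Cbr2 and Fcna). They also had to exceed those of 3 phagocyte genes (Gpnmb, Atp6v0d2 and Ifi202b). The gate asked for 1000 or more UMIs per well, at least 1% of them from 8 macrophage genes (Lyz2, Ctss, C1qa, C1qb, C1qc, Cd68, Csf1r and Mrc1), under 1% from S100a8 and S100a9, and under 2% from Col1a1, Col1a2, Col3a1, Dcn and Lum. Of 3101 cells, 404 passed it as macrophages, and 160 of these were Ccr2/Thbs1 macrophages. The remaining macrophages were 98 resident cells, 131 Gpnmb cells and 15 cells with no leading set.

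The labels give male C57BL/6 mice aged 8 weeks, and cells of the infarcted region were sorted one per well into plates for SORT-seq, a plate-based single-cell RNA-seq that counts UMIs. IR denotes ischemia-reperfusion, in which the left anterior descending coronary artery was tied off for 1 hour and then released, and MI denotes its permanent ligation. The groups were sham day 1 (4 plates), sham day 14 (7 plates used), IR day 1 (9 plates), IR day 3 (7 plates, replicate 2 of which held no cell), IR day 14 (3 plates) and MI day 3 (5 plates). The methods give 3 mice per condition for sham and MI hearts of day 3 and no number for IR. The labels do not tie plates to mice, so plates may share animals and p-values over plates may be too small. None of the sham plates used here is labelled day 3, and the MI plates carry a protocol text of their own, so the type of ligation and the batch cannot be told apart.

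Monocytes enter the infarcted heart from the blood through the chemokine receptor CCR2 and turn into macrophages there, next to resident macrophages that self-renew in the tissue. Thrombospondin 1 (Thbs1) is a secreted matrix protein that activates latent TGF-beta, and the chemokine CXCL3 draws neutrophils. The origin of the cells was not traced in these data, so the cells are called here by genes that chose them. In the GRCm38 annotation Ccr2 lies on the plus strand at chr9:124101950-124113557, Cxcl3 on the plus strand at chr5:90786103-90789600 and Thbs1 on the plus strand at chr2:118111876-118127133.

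Plates held between 176614 and 5551870 UMIs over all wells. The median Ccr2/Thbs1 macrophage had 17106 UMIs, and depth differed between conditions, with medians of 9727 UMIs at IR day 1, 8290 at IR day 3 and 23525 at MI day 3. Mitochondrial transcripts, counted apart from the UMIs above, had medians of 18.9%, 12.6% and 7.45% in the same order. IR day 1 replicates 3 and 9 hold wells copied from other IR day 1 plates, and 1 of the 160 cells sat in such a well.

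Because the set chose the cells, the levels of its genes are given as a description without a test. Thbs1 was detected in 134 of the 160 cells (83.8%), Ccr2 in 108 (67.5%) and Cxcl3 in 46 (28.7%). Thus most of the cells carried Thbs1 and Ccr2, and the chemokine Cxcl3 was found in fewer. With 139 of the cells thinned to a common depth, Thbs1 was found in 68.3%, Ccr2 in 51.1% and Cxcl3 in 8.63%. The other macrophages were shallower (median 8702 UMIs), and the shares that follow are not matched for depth. In resident macrophages Thbs1 was found in 26.5% and Ccr2 in 6.12% of cells, and in Gpnmb macrophages Thbs1 was found in 52.7%, Ccr2 in 42.7% and Cxcl3 in 0 of 131.

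The genes that chose the cells were found in different shares of the cells in each condition. At MI day 3, Thbs1 was found in 90.4% of 115 cells and Ccr2 in 67.0%, whereas at IR day 3, Thbs1 was found in 57.9% of 19 cells and Ccr2 in 73.7%. In the 22 cells of IR day 1, Thbs1 was found in 77.3% and Ccr2 in 68.2%. Ccr2 gave 6.05% of the set's UMIs at MI day 3, 7.58% at IR day 1 and 38.3% at IR day 3, where it stood apart, and Thbs1 gave 20.7%, 19.4% and 21.3% in the same order. Cells were also thinned to 5000 UMIs, which leaves out shallower cells. Ccr2 was then found in 51.5% of 103 MI day 3 cells, 83.3% of 12 IR day 3 cells and 70.6% of 17 IR day 1 cells.

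Levels per plate are given first for the plates holding 3 or more of the cells. UMIs were summed over the cells of a plate and scaled to a total of 1000000 (CPM). Ccr2 was 512.7, 364.8, 371.1, 200.1 and 183.7 CPM on MI day 3 replicates 1 to 5. It was 1633 and 1732 CPM on IR day 3 replicates 1 and 4, and 689.9 and 1300 on IR day 1 replicates 3 and 9. Thbs1 was 1003, 1359, 881, 1145 and 1796 CPM on the MI plates, 0 and 818.6 on the IR day 3 plates, and 871 and 3130 on the IR day 1 plates. On these plates Ccr2 was lower at MI day 3 than in either IR group, and Thbs1 was higher on every MI plate than on both IR day 3 plates while overlapping IR day 1. Plates with 1 or 2 of the cells did not keep this order. IR day 1 replicates 2, 5 and 7 had 71.96, 85.6 and 0 CPM of Ccr2, below every MI plate, and IR day 3 replicates 3 and 7 had 343.6 and 328.8 CPM, below MI replicates 1 to 3. Thbs1 was 1579 and 1808 CPM on IR day 3 replicates 5 and 7, in or above the range of the MI plates.

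**Figure D1:**
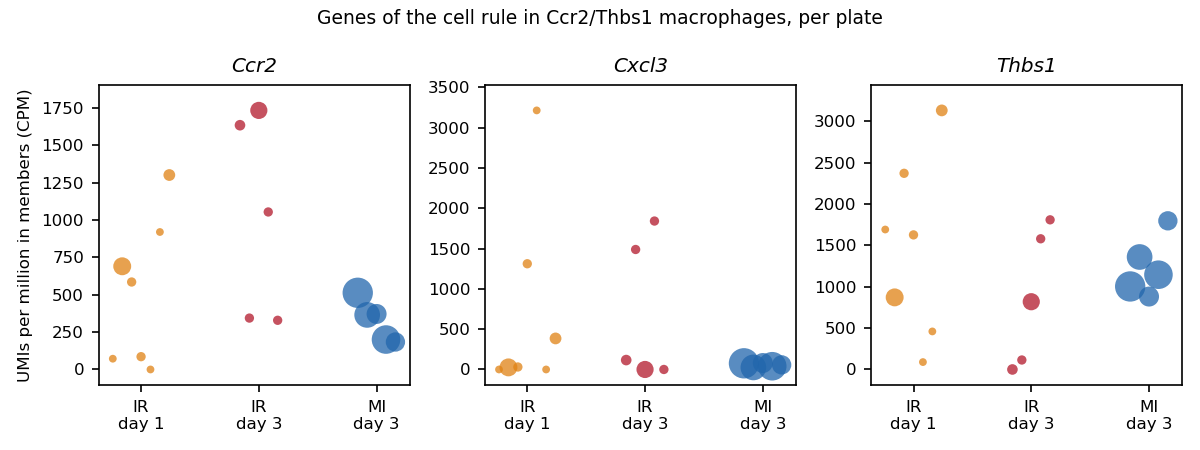
Level of Ccr2, Cxcl3 and Thbs1 (CPM, linear axis) in the Ccr2/Thbs1 macrophages of each plate at IR day 1, IR day 3 and MI day 3. Each circle is a plate and its area grows with the number of such cells, from 1 to 34, so small circles rest on 1 or a few cells. The 5 MI plates sit between 183.7 and 512.7 CPM for Ccr2, below the larger IR plates, and between 881 and 1796 CPM for Thbs1.

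Many of the cells were chosen by a wide margin, and some by a narrow one. The rule's 4 genes gave a median of 63.5 UMIs per cell (range 1 to 894). The median margin over the stronger of the other sets was 48.5 UMIs, with 128 cells at 10 or more and 13 cells at 1 to 3. Just inside the rule, an IR day 3 cell of replicate 4 had 24 UMIs of the set against 23 of the Gpnmb set. Just outside it, an IR day 3 cell of replicate 7 was tied at 52 against 52. Of the 244 other macrophages, 153 carried UMIs of the set, and 16 of the 160 cells carried none of either other set.

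Thbs1 transcripts were also widespread outside the macrophage gate. At MI day 3, 73.0% of the 560 cells outside the gate (median 8859 UMIs) had a Thbs1 UMI, at 802.9 CPM pooled, and 29.5% had a Ccr2 UMI. At IR day 1 the Thbs1 share outside the gate was 45.9% of 468 cells, at IR day 3 it was 16.4% of 427, and at sham day 14 it was 1.12% of 357. Detection of Thbs1 in an MI well therefore does not by itself mark a cell of the class.

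Ccr2/Thbs1 macrophages were abundant 3 days after permanent ligation and scarce in sham hearts. They made up 115 of 721 cells at MI day 3 (15.95%, exact binomial 95% interval 13.35 to 18.83, which covers counting error only). They made up 22 of 502 cells at IR day 1, 19 of 608 at IR day 3 and 1 of 476 at IR day 14. Sham hearts had 3 of 432 at day 1 and 0 of 362 at day 14, which allows a share of up to 0.8287% from a floor of 3 counts, or 1.014% as the exact binomial upper limit. By plate, the MI shares were 22.82%, 15.79%, 8.14%, 21.43% and 12.04%. All were higher than any of the 11 sham plates, the highest of which had 1.282%.

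The mean share over plates was 16.04% ± 6.195 (SD, n = 5) at MI day 3 against 0.2757% ± 0.488 (SD, n = 11) in the sham plates of both days. The difference of 15.77 percentage points had p = 0.000229 in an exact two-sided permutation test over plates, the smallest its 4368 arrangements allow (adjusted p = 0.000687 over 3 comparisons). At IR day 3 the 6 plates with cells had 27.27%, 3.704%, 3.788%, 5.882%, 0% and 0.9901%. Their mean of 6.939% ± 10.18 (SD, n = 6) was 6.664 points above sham (exact permutation, adjusted p = 0.004). The IR day 3 plates overlapped the sham plates, and the highest value came from replicate 1, which held 11 cells. Without it the difference was 2.597 points, and the exact permutation adjusted p was at most 0.0113 over all plates left out in turn.

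At IR day 1 the 9 plates ranged from 0% to 10.28%, with a mean of 3.648% ± 3.413 (SD, n = 9) against 0.7581% ± 0.5534 (SD, n = 4) at sham day 1. This difference of 2.89 points was not past the threshold (exact permutation, adjusted p = 0.122). Replicate 3 had the highest share and replicates 1 and 6 had 0%. These are shares of sorted cells, so a fall of other cell types and a gain of macrophages give the same share and cannot be told apart.

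**Figure D2:**
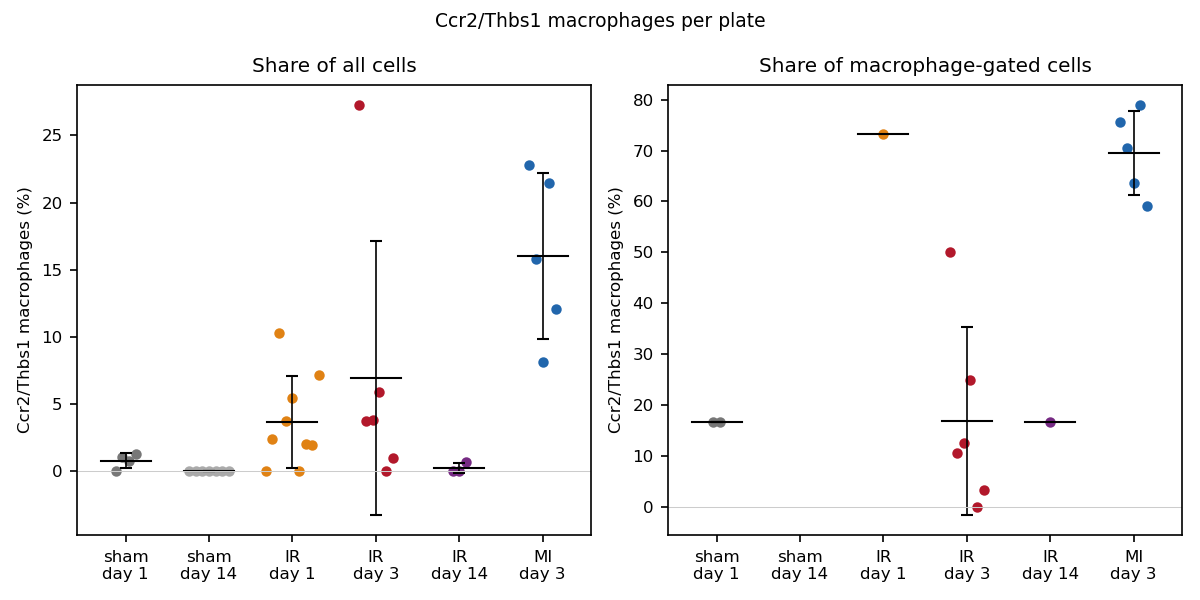
Ccr2/Thbs1 macrophages per plate as a percentage of all cells (left, plates with 10 or more cells) and of macrophage-gated cells (right, plates with 5 or more macrophages). Points are plates, horizontal lines are means and bars are SD, drawn where a group has more than 1 plate; the lower bars of IR day 3 reach below 0 because 1 plate stands far above the others. All 5 MI plates lie above every sham plate on the left (8.14% or more against 1.282% or less), and above every IR day 3 plate on the right.

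Within the macrophages, the share of the class differed between the MI and IR plates of day 3. Transcripts of the set were also more widespread in other MI cells. Thbs1 was found in 65.4% of resident macrophages at MI day 3 and in 7.89% at IR day 3, and its part in the shares was not tested. Ccr2/Thbs1 cells were 75.56%, 70.59%, 63.64%, 78.95% and 59.09% of the macrophages on the MI plates and 50%, 10.53%, 12.66%, 25%, 0% and 3.333% on the IR day 3 plates, which do not overlap. The means were 69.56% ± 8.213 (SD, n = 5) and 16.92% ± 18.38 (SD, n = 6), a difference of 52.64 points (exact two-sided permutation test, p = 0.00433; adjusted p = 0.013 over 3 comparisons). The call ended with a macrophage gate of 2% (47.62 points, exact permutation adjusted p = 0.2) and with at least 10 macrophages per plate (60.72 points, adjusted p = 0.0536). At IR day 1, 22 of 34 macrophages belonged to the class (64.71%), but the cells were spread so that only replicate 3 had 5 macrophages, with 73.33%. MI day 3 differed from this plate by -3.77 points (exact permutation, p = 0.833, where 0.167 was the smallest possible). IR day 3 differed from it by -56.41 points (exact permutation, p = 0.143, the smallest possible; adjusted p = 0.214). Neither contrast could have passed the threshold.

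The number of cells depended on the gate. With a macrophage gate of 0.5% of UMIs in place of 1%, the class held 236 of 305 macrophages at MI day 3, 49 of 64 at IR day 1 and 25 of 218 at IR day 3. With 2% it held 7 of 21, 1 of 6 and 9 of 78. The MI share of all cells was 32.73% under the wider gate and 0.9709% under the narrower one, where the IR day 3 share was 1.48%. Under the wider gate the IR day 1 share was above sham by 6.206 points (exact permutation, adjusted p = 0.049).

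Next, the class was set beside the other macrophages of the same plates, where differences between injuries or sorts do not enter. The classes were cut on genes of the same cells, so these contrasts are descriptions without a test. The genes that led the class over resident macrophages, on the 7 plates with 3 or more cells of each (136 against 41 cells), included coagulation factors F7 and F10, Plac8, Vcan and H2-Ab1. F7, coagulation factor VII, which starts clotting with tissue factor, averaged 133 ± 49.4 CPM (SD, n = 7 plates) in Ccr2/Thbs1 cells and 1.04 ± 2.75 in resident cells, with 448 UMIs against 1. F10, coagulation factor X, which factor VIIa activates, averaged 89.8 ± 62.8 against 1.7 ± 2.92 CPM, with 2 UMIs in resident cells. Both genes were higher in Ccr2/Thbs1 cells on 7 of 7 plates. They are neighbours on the plus strand, at chr8:13026034-13035809 and chr8:13037308-13056676 (GRCm38). Other clotting genes did not follow. F13a1, coagulation factor XIII A, was lower in the class on 5 of 7 plates (898.8 against 1488 CPM), and the tissue factor gene F3 was at 0 in both classes.

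Several other genes were higher on all 7 plates. Plac8, expressed in classical monocytes, averaged 83.1 ± 121 against 1.7 CPM (180 UMIs against 2), and Vcan, the proteoglycan versican, 59.1 against 5.01 CPM. Chi3l3, the chitinase-like Ym1 of alternatively activated macrophages, averaged 438 ± 248 against 40.5 ± 32.9 CPM, a row that near-identical copies of the gene may share. Fn1, fibronectin, among the most abundant genes of the matrix list, had a smaller ratio and averaged 3481 ± 1282 against 812.7 ± 766.5 CPM. The MHC class II chain H2-Ab1 averaged 377 ± 509 against 32.7 ± 7.53 CPM. Each of these 5 genes was higher in Ccr2/Thbs1 cells on all 7 plates, while the monocyte gene Samhd1 was higher on 3 of 7 (242 against 301.2 CPM). Of the other MHC class II genes, H2-DMa was higher on 7 plates, H2-Aa, Cd74 and H2-DMb1 on 6, H2-Eb1 on 4 and Ciita on 3. Of the other alternative activation genes, Tgm2 was higher on 7 plates, Socs3 on 6, and Clec10a, Cd83 and Stat6 on 4. Mgl2, Il4ra and Retnla were higher on 2, and Ear2 was at 0. Plac8 and H2-Ab1 varied among plates by more than their mean and were highest on IR day 3 replicate 4 (352 and 1450 CPM). Other leading genes were Mmp12, the macrophage elastase (212 against 19.3 CPM), and Ppbp, a platelet chemokine gene (398 against 55.6). The leukocyte protease inhibitor Slpi (93.1 against 6.71) and the leukotriene B4 receptor Ltb4r1 (51.6 ± 12.2 against 5.85) were among them as well.

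Resident macrophages were higher for Gas6, the ligand of the TAM receptors that take part in the uptake of dying cells, with 1220 ± 417 CPM against 221 ± 59.7 in Ccr2/Thbs1 cells and no overlap between the classes. Fcgrt, the neonatal Fc receptor, had 374 against 61.9 CPM, the prostaglandin-degrading Hpgd 121 against 12.3, Cadm1 114 against 7.66 and the chemokine Ccl8 294 against 40.2. Il1b, the inflammatory cytokine interleukin 1 beta, was 461 ± 128 CPM in Ccr2/Thbs1 cells and 178 ± 175 in resident cells. It was higher in the former on 6 of 7 plates, all but IR day 3 replicate 4 (362 against 407 CPM).

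**Figure D3:**
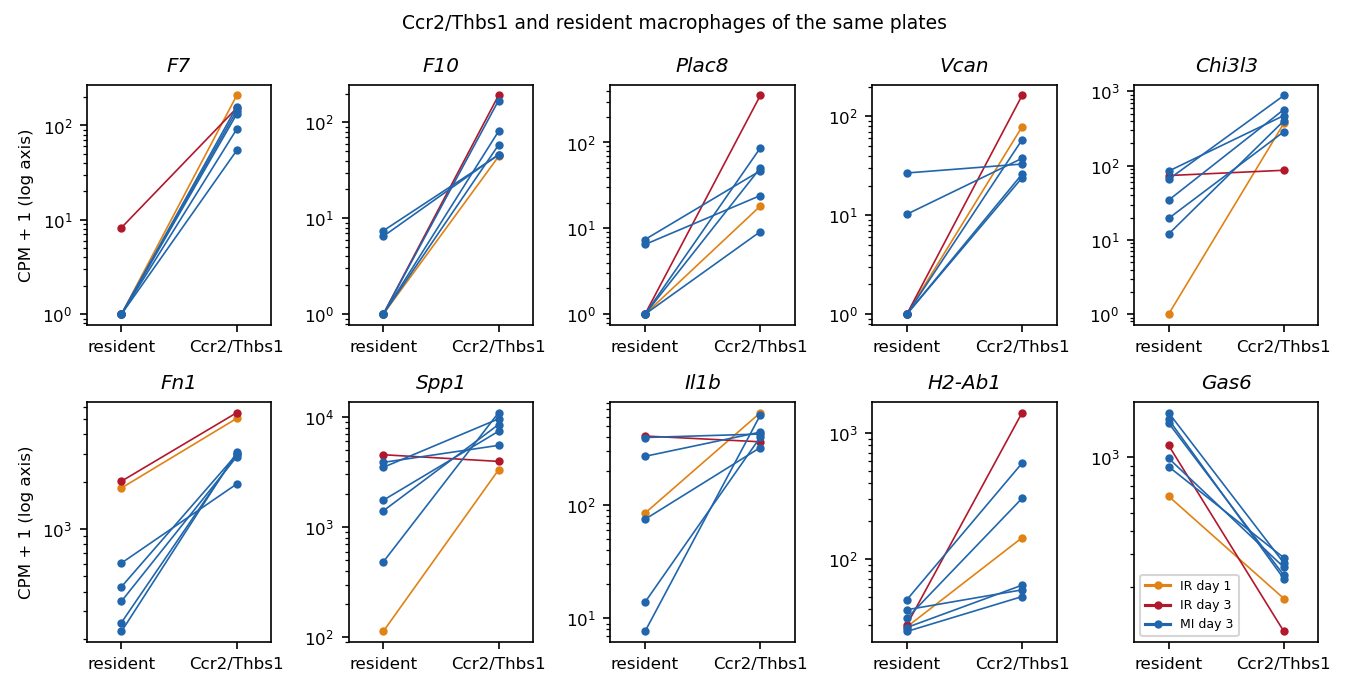
Level of 10 genes (CPM + 1, log axis) in resident and in Ccr2/Thbs1 macrophages of the same plate; each line joins the values of 1 of the 7 plates and its colour gives the condition. F7, F10 and Plac8 sit at or near 0 CPM in resident cells of nearly every plate, Fn1 and H2-Ab1 rise along all 7 lines, Gas6 falls along all 7, and Spp1 and Il1b fall along the line of IR day 3 replicate 4.

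Against Gpnmb macrophages, on 4 plates (82 against 68 cells), the genes that led the class included Il1b, Cxcl2, Ccl24, Cx3cr1 and Plac8. Il1b was 456 ± 116 against 23.8 ± 17.5 CPM without overlap, and Cxcl2, a neutrophil-attracting chemokine, was 947 against 102. Ccl24, the eotaxin 2 gene, was 123 against 6.49 CPM, the fractalkine receptor Cx3cr1 154 against 13.4 and Plac8 133 against 1.38. Mmp9, the gelatinase, was 174 against 5.37 CPM and higher on 3 of 4 plates. Of 14 lipid handling genes, 8 were higher in Gpnmb macrophages on at least 3 of 4 plates, 4 (Apoe, Msr1, Ch25h and Olr1) were higher in the class on 3 of 4, and Cd36 and Cd9 were split evenly. Among the 8, Fabp5, a fatty acid carrier, was at 4540 ± 1620 against 742 ± 342 CPM in the class and Fabp4 at 376 against 35.3. Lpl, lipoprotein lipase, was 1919 against 531 CPM and Lgals3, galectin 3, was 7118 against 2427. F7 did not separate these classes (113 CPM in Ccr2/Thbs1 and 160 in Gpnmb cells, each higher on 2 of 4 plates), and F10 was 121 against 19.1 CPM. Chi3l3 (501.9 CPM in the class against 479.6) and Mmp12 (282.8 against 231.0) did not separate them either. Chi3l3 was higher in the class on 3 of 4 plates and Mmp12 on 2.

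Markers of other cell types were low but not absent in the class. Of 10 cardiomyocyte markers all 10 had UMIs in the cells. Their summed level was 150 to 637 CPM on the MI plates, 681 and 482 on the IR day 1 plates, and 583 and 4390 on the IR day 3 plates. At IR day 3, 5 of 19 cells carried more than 0.5% of their UMIs from them. The 10 fibroblast markers summed to 413 to 1030 CPM on the MI plates, 198 and 289 at IR day 1, and 0 and 476 at IR day 3. The 10 neutrophil markers, which include Mmp9, summed to 416 to 730 CPM on the MI plates, 440 and 241 at IR day 1, and 0 and 238 at IR day 3. Of the defining neutrophil genes, S100a8 was 40.8 to 196.0 CPM on the MI plates, S100a9 8.16 to 216.0, Mmp8 20.4 to 114.0 and Retnlg 0 to 6.03, and all 4 were at 0 on both IR day 3 plates. Ccr7 and Ccl22 of mature dendritic cells and Cd3e, Cd3g, Nkg7 and Gzma of lymphocytes were at 0.

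The conditions were then compared within the class, on UMIs summed over the cells of a plate, with edgeR's quasi-likelihood test over 5438 genes and 9 plates (2 IR day 1, 2 IR day 3 and 5 MI day 3). The 28 genes of the cell rule are left out of the counts of called genes. At MI day 3 against IR day 3, 29 genes passed an adjusted p of 0.05 (0.533% of the genes tested; 607 at an unadjusted p under 0.05). Mmp9, Hmox1, Slc48a1, Mt2 and Gapdh were among the 11 higher in MI cells, and Cd74, H2-Aa, H2-Ab1, Plac8 and 11 heart muscle genes among the 18 lower. Both IR day 3 plates are thin, with 3 cells (8571 UMIs) on replicate 1, where a single UMI equals 117 CPM, and 10 cells (105055 UMIs) on replicate 4. Without replicate 4, 2 genes passed, and 1 of them was among the 29.

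Of the 11 genes higher in MI cells (0.202% of those tested), Mmp9, which degrades gelatin and basement membrane collagen, had no UMI at IR day 3. Mmp9 was 154, 266, 275, 361 and 151 CPM on the 5 MI plates, 0 and 0 on the IR day 3 plates, and 25.9 and 0 on the IR day 1 plates. With 0 among the 113626 UMIs of IR day 3, MI cells were at least 9.14-fold higher, counting 3 UMIs over the group as the floor (edgeR adjusted p = 0.0035). The neutrophil genes S100a8, S100a9 and Mmp8 were likewise found on every MI plate and at 0 on both IR day 3 plates, whereas Csf3r (47.6 CPM), Cxcr2 (66.6) and Clec4e (124.0) were found on IR day 3 replicate 4. Of 5 tested neutrophil markers 3 had positive and 2 negative log2 fold changes, with a median of 0.20 against 0.17 over all genes, and their part in the result was not tested. Gsr, glutathione reductase, was likewise at 0 on both IR day 3 plates and 90.5 to 190 CPM on the MI plates, at least 5.16-fold higher (edgeR adjusted p = 0.0226). The Mmp9 call was kept (edgeR adjusted p = 0.0234) without cells holding 0.5% or more of cardiomyocyte, endothelial, neutrophil or lymphocyte markers. That filter left 114 of the 115 MI cells and 14 of the 19 IR day 3 cells. It is therefore no check on the neutrophil transcripts of the MI plates. The Mmp9 call was lost without IR day 3 replicate 4, which leaves 1 IR day 3 plate.

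Hmox1, Slc48a1 and Mt2 were higher as well. Hmox1, the inducible haem oxygenase that releases iron from haem, was 3470, 4220, 2620, 4150 and 1720 CPM on the MI plates against 1630 and 181 at IR day 3. Its log2 fold change was 3.20 ± 0.754 (SE; edgeR adjusted p = 0.0485), a call lost in 11 of 22 alternatives. It was 4.31 without IR day 3 replicate 1 and 2.10 without replicate 4, where the median over all genes was 5.965. Slc48a1, which exports haem from the lysosome, was 282 to 432 CPM against 0 and 85.7 (log2 2.40 ± 0.524, adjusted p = 0.0236). Mt2, a metallothionein that binds zinc and copper, was 359, 691, 350, 376 and 555 CPM against 0 and 19.04 (log2 4.86 ± 0.769, adjusted p = 0.000886). All MI plates were above both IR day 3 plates for these 3 genes, and Hmox1 by the least, with its lowest MI plate close to IR day 3 replicate 1. Of 8 tested iron and haem genes, 2 passed, where 0.533% of all genes tested did. All 8 had a positive log2 fold change, with a median of 1.03 against 0.17 over all genes. The ferritin chains Ftl1 and Fth1, the most abundant of the list at 18610 and 10720 CPM in MI cells and 13180 and 8088 at IR day 3, did not pass.

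Gapdh, which carries out a central step of glycolysis, was 868, 1240, 1820, 1170 and 1640 CPM on the MI plates against 117 and 276 at IR day 3 (log2 2.62 ± 0.483, edgeR adjusted p = 0.0035). Pseudogene copies may share its reads. It was the only one of 17 tested glycolysis and hypoxia genes to pass, where 0.533% of all genes tested did. All 17 had positive log2 fold changes, with a median of 1.22 against 0.17 over all genes. For 14 of 17 the MI plates did not overlap the IR day 3 plates, where 31.3% of all genes tested did not overlap. Aldoa, aldolase A, was 1274 to 1832 CPM in MI cells and 583 and 571 at IR day 3 (edgeR adjusted p = 0.0763). Pkm (2570 and 1675 CPM), Ldha (1490 and 680.7 CPM) and Pgk1 (1176 and 557 CPM) missed the threshold by more.

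The remaining immune and lipid genes among the higher ones were Chi3l3, with 569, 472, 881, 401 and 286 CPM on the MI plates against 117 and 85.7 (log2 2.73 ± 0.593, edgeR adjusted p = 0.0229), Mif and Fabp5. Mif, a cytokine that slows macrophage migration, was 633 to 926 against 117 and 219 CPM (log2 2.12 ± 0.476, edgeR adjusted p = 0.0297). Fabp5 was 758 to 1200 against 700 and 257 CPM (log2 1.86 ± 0.43, edgeR adjusted p = 0.0416). The Fabp5 plates came close to each other, and its call was lost in 10 of 22 alternatives and its direction turned in 1, while the call was lost in 7 of 21 for Chi3l3 and 8 of 22 for Mif. Erdr1 and the row named for the microRNA hairpin Mir5109 also passed (log2 3.99 and 3.66), and both can share reads with copies elsewhere.

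**Figure D4:**
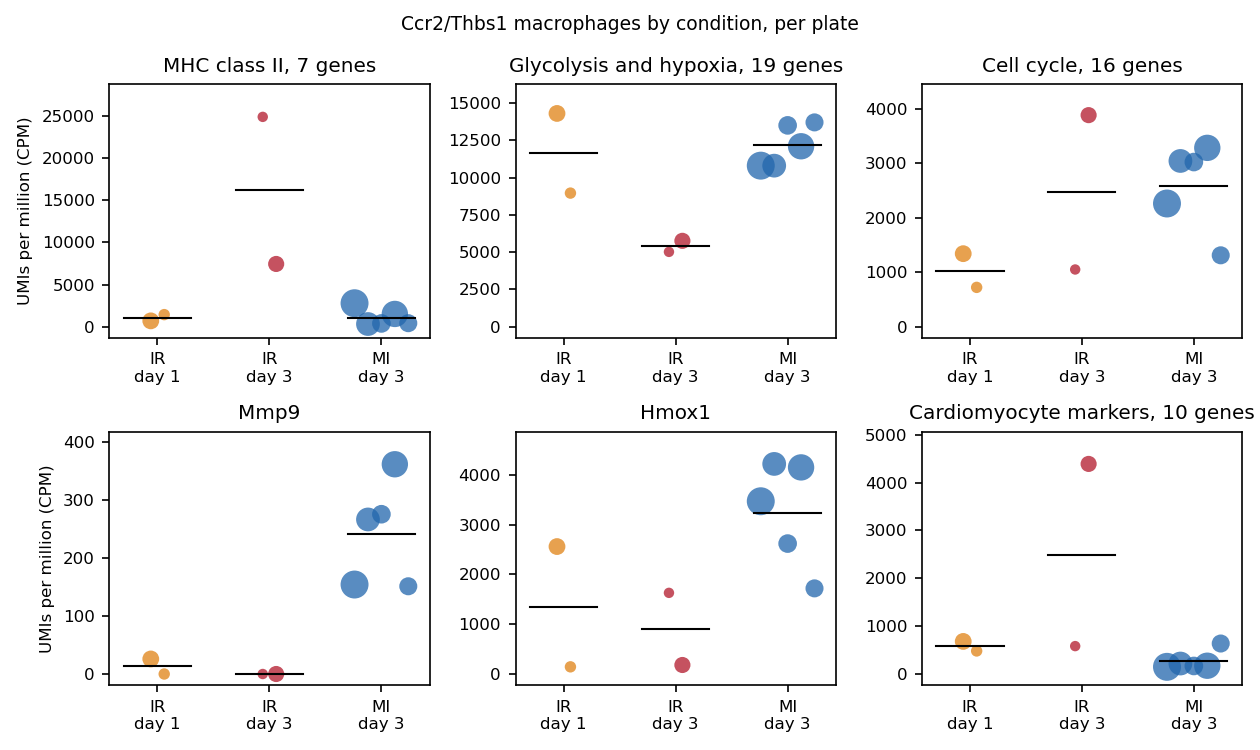
Levels (CPM, linear axes) in the Ccr2/Thbs1 macrophages of each plate with 3 or more of them, by condition, for 4 summed gene lists and for Mmp9 and Hmox1. Circle area grows with the number of cells on the plate and lines are means over plates. MHC class II is highest on both IR day 3 plates (24900 and 7450 CPM), glycolysis is lowest there, Mmp9 is at 0 there, and the cardiomyocyte markers are high on IR day 3 replicate 4 alone (4390 CPM).

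MHC class II genes, which present peptides to CD4 T cells, were the main immune genes lower in MI cells. The invariant chain Cd74 was 1030, 144, 216, 536 and 151 CPM on the MI plates, 9220 and 2460 at IR day 3, and 293 and 578 at IR day 1. The alpha chain H2-Aa was 541, 41.1, 13.3, 300 and 49.0 CPM on the MI plates, 7000 and 1890 at IR day 3, and 77.6 and 144 at IR day 1. The beta chain H2-Ab1 was 577, 49.5, 56.1, 303 and 61.2 CPM, 5480 and 1450, and 147 and 0 in the same order. Among the plates with 3 or more of the cells, both IR day 3 plates were above every MI and IR day 1 plate for these genes. MI replicates 1 and 4 were the highest of the MI plates. Plates with 1 or 2 of the cells did not keep this order. The MHC class II list gave 244 of 6528 UMIs on IR day 1 replicate 8. It gave 234 of 8730 UMIs on IR day 3 replicate 3, but 3 of 3800 on replicate 5 and 3 of 12166 on replicate 7.

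The genes fell by 2.99 ± 0.505 (Cd74, edgeR adjusted p = 0.00176), 3.66 ± 0.658 (H2-Aa, adjusted p = 0.00289) and 3.13 ± 0.617 (H2-Ab1, adjusted p = 0.00789) on the log2 scale. Of 7 tested genes of the list, 3 passed, all 7 were negative with a median of -2.83, and all 7 had plates that did not overlap, against 0.533% called and 31.3% not overlapping over all genes. H2-Eb1, the other beta chain, had 155.2 CPM in MI cells and 1756 at IR day 3 without passing (edgeR adjusted p = 0.117). The loading chaperone genes H2-DMa (58.8 against 216.6 CPM) and H2-DMb1 (36.24 to 70.02 against 133.3 and 466.7 CPM) did not pass. Ciita, the master regulator of the set, had 24 UMIs in MI cells and 5 at IR day 3 (5.012 against 131 CPM) and did not pass. Leaving out IR day 3 replicate 1, with its 3 cells, ended the calls, with log2 fold changes of -2.38 for Cd74, -3.09 for H2-Aa and -2.56 for H2-Ab1 (edgeR adjusted p = 0.103, 0.121 and 0.192). Leaving out replicate 4, with its 10 cells, ended them too, with -3.33, -4.01 and -3.53 in the same order (edgeR adjusted p = 0.109, 0.195 and 0.317). The calls were lost in 7, 8 and 8 of 22 alternatives. Few cells carried the level: 0.5% or more of a cell's UMIs came from this list in 1 of 3 cells on IR day 3 replicate 1. On replicate 4 this held for 3 of 10 cells. Leaving out the cells that carried other markers kept Cd74 (log2 -3.22, edgeR adjusted p = 0.00107) and H2-Aa (log2 -3.87, adjusted p = 0.00204).

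MHC class II promoters carry a Y box, bound by NF-Y, next to the boxes that recruit CIITA. The letters CTGATTGG, searched on both strands of the 250 bases before the start of each RefSeq gene (GRCm38.p6), were found in 1258 of 32851 windows (3.83%). Of the 7 listed genes 4 had a window, and the H2-Aa and H2-Eb1 windows hold these letters, 51 and 62 bases before the start, whereas H2-DMa and H2-DMb1 do not. The 150 bases before the start are shown for both genes, 5′ to 3′ on the strand of the gene, since MHC class II genes lead the immune genes that differ between the injuries. Capitals mark the motif, and a match of letters is not a measured site. H2-Aa lies on the minus strand (window chr17:34287824-34287973) and H2-Eb1 on the plus strand (window chr17:34305717-34305866).
H2-Aa: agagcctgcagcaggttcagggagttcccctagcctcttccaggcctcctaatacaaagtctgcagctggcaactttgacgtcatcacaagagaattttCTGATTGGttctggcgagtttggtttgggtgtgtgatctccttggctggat
H2-Eb1: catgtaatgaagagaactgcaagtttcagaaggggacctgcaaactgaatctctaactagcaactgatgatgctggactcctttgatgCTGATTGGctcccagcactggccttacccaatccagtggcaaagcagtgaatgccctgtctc

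Of the 18 genes lower in MI cells (0.331% of those tested), 11 encode heart muscle proteins: Ttn, Myh6, Tnnt2, Actc1, Myl2, Myl3, Casq2, Atp2a2, Mb, Cox6a2 and Nppa. Myh6, alpha myosin heavy chain, was 116.7 and 780.5 CPM on the IR day 3 plates and at most 20.4 on the MI plates, and Ttn, titin, was 116.7 and 666.3 CPM against at most 14.0. Clusterin (Clu) and Ndrg2 fell with them. On IR day 3 replicate 1 the Myh6 and Ttn values are 1 UMI each, and Actc1, Myl2, Casq2, Mb, Cox6a2, Nppa and Clu were at 0, so that most of these calls rest on replicate 4. Without replicate 4 the log2 fold changes of Actc1, Atp2a2, Cox6a2, Mb, Myl2, Nppa and Clu turned positive (1.20 for Atp2a2 to 7.93 for Actc1). That fit leaves 1 thin IR day 3 plate, and its median over all genes was 5.965, so the turn is not particular to these genes. The summed cardiomyocyte markers were high on IR day 3 replicate 4 (4390 CPM). Cells with 0.5% or more of cardiomyocyte, endothelial, neutrophil or lymphocyte markers were then left out, while fibroblast and dendritic markers were not filtered. With these cells left out, 14 genes passed, 9 higher and 5 lower, of which 12 were among the 29. At MI day 3, 8 of 115 cells carried 0.5% or more of fibroblast markers and stayed in unless they carried the others.

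Tmem176b, a transmembrane protein gene of antigen-presenting cells, was 108, 68.9, 50.7, 44.2 and 32.6 CPM on the MI plates against 817 and 400 at IR day 3 (log2 -2.59 ± 0.403, edgeR adjusted p = 0.000789) and is not a muscle gene. Plac8 was 49.5, 45.9, 85.4, 23.1 and 8.16 CPM against 117 and 352 (log2 -2.69 ± 0.555, edgeR adjusted p = 0.0134). Without the cells that carried markers of other cell types its log2 fold change was -0.66 (edgeR adjusted p = 0.833). It was -0.34 without IR day 3 replicate 4, where the median over all genes was 5.965. The part of such cells in the Plac8 result was not tested. Plac8 was the only one of 13 tested monocyte genes to pass, where 0.533% of all genes tested did. The list had 4 positive and 9 negative values, with a median of -0.37 against 0.17 over all genes. Cd14 (1165 and 1439 CPM) and S100a4 (944.2 and 1109 CPM) were the most abundant of the list and did not pass.

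Other groups known in wound macrophages are given by their levels at day 3, since with 0.533% of all genes called, 0 calls in lists of this size is no result about them. Of 14 chemokine genes 0 passed, with Pf4 at 3219 CPM in MI and 1746 in IR day 3 cells, Ccl6 at 3206 and 1263, and Ccl2, the ligand of CCR2, at 1305 and 1301. Of 7 inflammatory cytokine genes 0 passed, and Il1b was 441.8 and 414.2 CPM. Of 14 lysosomal genes 0 passed, with Ctsb at 10090 and 12610 CPM and Ctsd at 5150 and 2360, and of 12 interferon-stimulated genes 0 passed (median -0.43). Of 14 proteasome and 12 immediate early and heat shock genes 0 passed.

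Of 16 tested matrix and clotting genes Mmp9 was the only one to pass, where 0.533% of all genes did. The list had 13 positive and 3 negative values, with a median of 1.67 against 0.17 over all genes. Spp1, osteopontin, was 7390, 8510, 5510, 9580 and 10900 CPM on the MI plates against 817 and 3940 at IR day 3 without overlap, but its log2 fold change of 1.85 ± 0.594 was not past the threshold (edgeR adjusted p = 0.219). Fn1 was 1930 to 3060 CPM on the MI plates and 1050 and 5480 at IR day 3, which overlap, and Tgfbi was 1130 to 1540 CPM against 4200 and 1700. Of 7 alternative activation genes Chi3l3 passed (median 0.38), and of 13 lipid handling genes Fabp5 passed (median 0.71), while Apoe, at 8432 and 11210 CPM, did not.

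Between MI day 3 and IR day 1, 8 genes passed (0.147% of those tested; 570 at an unadjusted p under 0.05), 2 of them higher (0.0368%) and 6 lower (0.11%). These contrasts mix the day with the type of ligation. Mmp9 was again higher in MI cells (log2 3.60 ± 0.745, edgeR adjusted p = 0.0449, with 3 UMIs on the IR day 1 plates), a call lost in 12 of 20 alternatives. Bgn, the matrix proteoglycan biglycan, was 156, 105, 179, 107 and 196 CPM on the MI plates and absent from the 136728 UMIs of IR day 1, at least 6.77-fold higher (edgeR adjusted p = 0.0266). Bgn is a fibroblast gene, the fibroblast markers were higher on the MI plates as well (413 to 1030 against 198 and 289 CPM), and so were the 5 fibroblast genes of the gate, with a sum of 588.0 to 1990 against 276.0 and 0 CPM. Their part in the result was not tested.

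Lower in MI cells was Ms4a4c, of the MS4A membrane protein family, with 189.7 and 385.2 CPM on the IR day 1 plates and 23.7, 26.6, 61.4, 9.05 and 20.4 on the MI plates (log2 -3.02 ± 0.539, edgeR adjusted p = 0.0146), a separation without overlap. Cdk2ap2, a CDK2-associated protein gene (258.7 and 529.7 against 65.35 to 110.2 CPM, log2 -1.81, edgeR adjusted p = 0.0266), fell as well. So did Mycbp2, an E3 ubiquitin ligase gene (267.3 and 1156 against 77.54 to 169.1 CPM, log2 -1.92, edgeR adjusted p = 0.0449), together with the muscle genes Ttn, Cox6a2 and Xirp2. The call was lost in 12 of 20 alternatives for Mycbp2 (log2 -1.15 without IR day 1 replicate 9), in 7 for Cdk2ap2 and in 6 for Ms4a4c. Cox6a2 ranged from log2 -3.74 to -0.88 in this comparison with each plate left out in turn. Interferon-stimulated genes had no member past the threshold, although 12 of 12 were lower in MI cells with a median of -1.74 against 0.11 over all genes. Of these, 3 did not overlap, where 28.6% of all genes did not. Rsad2, the antiviral viperin gene, had 39 UMIs on IR day 1 replicate 3, which made its level 336.3 CPM there and 0 on replicate 9.

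Between IR day 3 and IR day 1, edgeR called 0 of 5438 genes (0.0%; 557 at an unadjusted p under 0.05), and DESeq2 called 17. Each side held 2 plates of 3 to 11 cells, so the absence of edgeR calls does not show that the groups are alike. MHC class II genes had 7 of 7 positive values with a median of 3.31, and 6 of 7 did not overlap, where 31.4% of all genes did not. Glycolysis and hypoxia genes had 16 of 17 negative values (median -1.19), with Aldoa at 583 and 571 CPM on the IR day 3 plates and 1910 and 1010 on the IR day 1 plates (edgeR adjusted p = 0.249). Since the 3 comparisons share plates, the low glycolysis and high MHC class II values of the same 2 IR day 3 plates enter more than 1 of them.

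**Figure D5:**
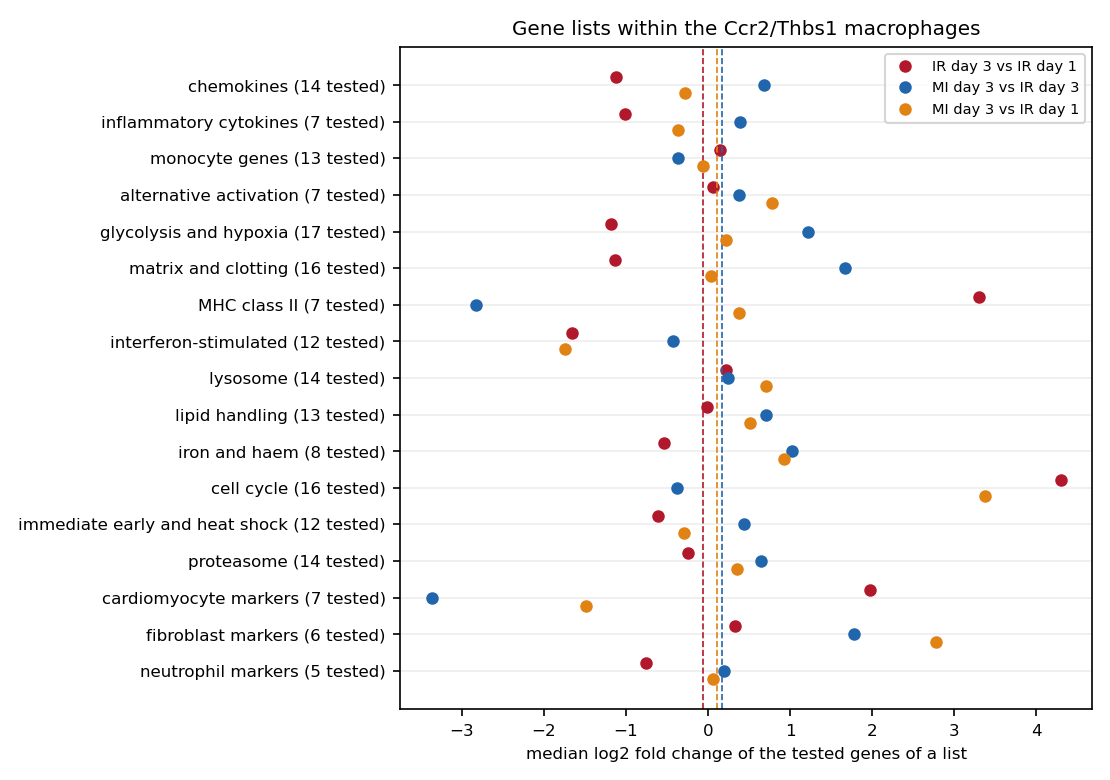
Median log2 fold change of the tested genes of each list (horizontal axis) within the Ccr2/Thbs1 macrophages, for the 3 comparisons of conditions; each dot is a list in 1 comparison and dashed lines give the median of all genes. In the comparison of MI day 3 with IR day 3, MHC class II lies at -2.83 and glycolysis and hypoxia at 1.22, and the cell cycle list lies at 3.38 for MI day 3 against IR day 1.

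Genes of dividing cells were found in day 3 cells of both ligations and in few day 1 cells. Mki67, the proliferation antigen Ki-67, was 149, 285, 214, 170 and 44.9 CPM on the MI plates, 0 and 371 at IR day 3, and 0 and 0 at IR day 1. Of 16 cell cycle genes 16 were higher in MI day 3 than in IR day 1 cells, with a median of 3.38 against 0.11 over all genes. Of these, 9 did not overlap, where 28.6% of all genes did not, and 0 passed the threshold (Mki67 and Stmn1 edgeR adjusted p = 0.1). The median stood at -0.37 between MI and IR at day 3, with 6 positive and 10 negative values.

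Single cells showed the same. At least 5 UMIs of Mki67, Top2a, Birc5, Ccnb1, Ccnb2, Cdk1 and Ube2c were found in 41 of 115 MI cells, on all 5 plates (9, 11, 8, 11 and 2 cells). They were found in 4 of 19 IR day 3 cells, all on replicate 4, and in 1 of 22 IR day 1 cells. Depth differs between these groups, so cells were also thinned to 5000 UMIs. Then 59 of 103 MI cells (57.3%), 8 of 12 IR day 3 cells (66.7%) and 3 of 17 IR day 1 cells (17.6%) had a UMI of these genes. Cells of a plate share a library, and these shares were not tested.

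High MHC class II levels were found in few cells. The genes of the list made up 0.5% or more of a cell's UMIs in 6 of 115 MI cells, on 2 plates and 5 of them on replicate 1. They did so in 6 of 19 IR day 3 cells on 3 plates, and in 3 of 22 IR day 1 cells on 3 plates. Ccr2, a gene of the rule, was found in 6 of 6, 5 of 6 and 3 of 3 of these cells, beside 67.0%, 73.7% and 68.2% of all cells of the class in the same order. The highest single cell reached 2.19% at MI day 3, 6.91% at IR day 3 and 3.74% at IR day 1, and the medians were 0.0163%, 0.0936% and 0.062%. After thinning to 5000 UMIs, at least 1 MHC class II UMI was found in 67.0%, 83.3% and 70.6% of cells in the same order, so low levels were common in every condition.

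Cells led by different genes of the set differed in other genes, described here without a test because the split uses the same cells. At MI day 3, Thbs1 led in 19 cells and Ccr2 in 10, each on all 5 plates. Ccr2-led cells had more MHC class II than Thbs1-led cells (4652 against 361 CPM pooled) and more Plac8 (197 against 71.2). They also had more of the fractalkine receptor Cx3cr1 (383.6 against 50.87), Il1b (1119 against 686.8) and Tgfbi (2942 against 1188). They had less Spp1 (3114 against 8951 CPM) and less F7 (21.1 against 178). MHC class II had a median of 0.142% of UMIs in the 10 Ccr2-led cells, with 3 cells over 0.5% and a highest of 2.19%, so few cells carry the pooled value. The remaining 86 of the 115 MI cells are not described here. Dividing cells by the 5-UMI mark were found in both, 5 of 10 Ccr2-led and 4 of 19 Thbs1-led cells.

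At IR day 3, Ccr2 led in 10 of 19 cells, Thbs1 in 3 and Cxcl3 in 2. The 10 Ccr2-led cells, on 4 plates, had 12990 CPM of MHC class II and 13.02 CPM of F7, and the 3 Thbs1-led cells had 146.7 CPM of MHC class II and 831.1 CPM of F7. The 2 Cxcl3-led cells had 10910 CPM of MHC class II and 586.3 CPM of F7. Among the 10 Ccr2-led cells MHC class II had a median of 0.0833% of UMIs, with 4 cells over 0.5% and a highest of 6.91%, so the pooled value rests on few cells. The higher MHC class II level of the IR day 3 plates came together with a larger part of Ccr2-led cells, and how much of the one rests on the other was not tested.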

How the data were processed

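Single cells of the infarcted left ventricle were profiled by SORT-seq on 36 plates, and the authors deposited whole-number UMI counts per gene and well, mapped with BWA-ALN to the mouse genome (GRCm38, mm10; version and strand of counting not given in the sources used here). Counts are not normalised, and 6-base UMIs can saturate for abundant genes. Rows of mitochondrial genes and spike-ins were left out. The day 14 sham replicate 2 was dropped because 34 of its wells match wells of sham day 14 replicate 7 and 18 match wells of IR day 3 replicate 6 (0 cells of the class). The cells and gene lists were chosen with earlier results of these data known.

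Cells were called by UMI shares as described, with 1 gene of the leading set not reported here. Shares were compared over plates with 10 or more cells, or 5 or more macrophages, by exact two-sided permutation tests with Benjamini-Hochberg adjustment over each family of 3. Counts were summed over the cells of a plate and tested with edgeR 4.0.16 (R 4.3.3, limma 3.58.1; filterByExpr, TMM, quasi-likelihood test), with Benjamini-Hochberg adjustment over 5438 genes and a threshold of 0.05. A minimum of 5 cells per plate left 1 plate of IR day 1 and 1 of IR day 3, so 3 was used. The script was tested on simulated data. DESeq2 1.42.0, other scalings, filters, gates and thinning, a replicate block, and leaving out each plate were alternatives. Cells with other markers were those with 0.5% or more of their UMIs from the cardiomyocyte, endothelial, neutrophil or lymphocyte list. Total UMIs per plate were 176614 to 5551870; precision is set by the number of cells per plate. Genes were named as the 10 with the largest fold change per direction among those past the threshold with 20 or more CPM and plates that do not overlap, plus members of the lists that passed or were most abundant; genes leading over another class were named from the 15 with the highest ratio at 50 or more CPM, rule genes included, and from the lists. Statistics on plates used Python 3.11.15, numpy 2.4.6, scipy 1.17.1 and pandas 2.3.3; sequences are from RefSeq.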

Additional observations from a re-analysis of the deposited data

Results flagged for a closer look

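Values far from the rest of their group were found in 6 of 45 groups of plates tested, where chance alone gives about 1 in 20. The share of Ccr2/Thbs1 macrophages among all cells was 27.27% on IR day 3 replicate 1, which held 11 cells, with the next plate at 5.882%. In the Ccr2/Thbs1 cells of MI day 3 replicate 5, 3 heart muscle genes stood above the other MI plates: Actc1 at 180.0 CPM (next 71.4), Myh6 at 20.4 (next 5.34) and Tnnt2 at 171.0 (next 56.1). Casq2 was 2.01 CPM on MI day 3 replicate 4 and 0 on the other MI plates. The row named Mir5109 was 12600 CPM on MI day 3 replicate 2, with the next plate at 5380.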

How the results depend on the processing

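The shares of all cells kept their direction under every alternative tried, and those of IR day 3 and MI day 3 against sham also their side of the threshold. IR day 1 against sham passed with a gate of 0.5% (6.206 points, exact permutation adjusted p = 0.049). Of macrophages, IR day 3 minus IR day 1 was -54.25 with that gate (adjusted p = 0.00649, exact permutation), MI day 3 minus IR day 3 was 47.62 with a gate of 2% (adjusted p = 0.2) and 60.72 with 10 macrophages per plate (adjusted p = 0.0536), and MI day 3 minus IR day 1 turned to 8.208 with 500 UMIs per well and 5.563 with the 0.5% gate. With each plate left out in turn the differences ranged over 2.061 to 3.346, 2.597 to 8.052 and 14.07 to 17.74 (IR day 1, IR day 3 and MI day 3 against sham), -63.03 to -53.03, 49.26 to 59.26, and -6.116 to -1.151.

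Gene counts depended on the settings. For IR day 3 against IR day 1 (0 genes), DESeq2 called 17, no filter on low counts 53, only the 2 groups 3, at least 5 or 10 cells per plate 3 each, 1 cell per plate 25, at least 3 rule UMIs per cell 5, no cells with other markers 1 and thinned cells 2, and leaving out plates gave 0 to 19. For MI day 3 against IR day 3 (29), no filter gave 98, 1 cell per plate 4, no cells with other markers 14, thinned cells 9, and leaving out plates 2 to 53; DESeq2 called 30, of which 21 were higher and 9 lower against 11 and 18 with edgeR, and 16 were shared. For MI day 3 against IR day 1 (8), no filter gave 66, only the 2 groups 0, at least 5, at least 10 or 1 cell per plate 1 each, thinned cells 0, and leaving out plates 4 to 16. Without copied wells 0, 27 and 6 genes passed in the 3 comparisons. The settings of 1 and 5 cells per plate were chosen after seeing the data. Without the filter the median over all genes moved from 0.17 and 0.11 to 0.84 (log2) in both MI comparisons.

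Plates with the same replicate number showed no shared deviation (correlations 0.02, 0.01 and -0.03). Each IR group has 2 plates, whose deviations from their mean mirror each other, so this check cannot exclude a pairing. With the replicate number as a block 1, 14 and 1 genes passed in the 3 comparisons. Of 744 values of 37 named results under the alternatives, 554 kept their side of the threshold, 181 lost it and 9 turned. Fabp5 was -0.70 with 1 cell per plate. With each plate left out in turn Xirp2 ranged from -3.91 to 5.86 (highest without IR day 1 replicate 3), Actc1 from -3.72 to 7.93, Atp2a2 from -2.43 to 1.20, Clu from -6.07 to 5.17, Cox6a2 from -3.69 to 5.84, Mb from -2.95 to 7.10, Myl2 from -3.38 to 6.71 and Nppa from -6.12 to 4.17 (highest without IR day 3 replicate 4). Without IR day 3 replicate 4 the median over all genes was 5.965, so the highest values from Actc1 to Nppa go with a shift of most genes. Of the called genes at MI day 3 against IR day 3, Tmem176b lost its call in 1 alternative, Mt2 and Gapdh in 3 each, and Hmox1 in 11 of 22. Thin IR plates, with 3 to 11 cells each, limit all gene comparisons.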
